A study of Mus musculus with 6 samples.

Results

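The oxysterol-binding protein family was described in hepatic stellate cells. These pericytes of the liver store vitamin A and were taken here from mice with liver cirrhosis induced by CCl4 (carbon tetrachloride). The rule was by name: the probes whose platform gene symbol was Osbp, Osbpl1a, Osbpl2, Osbpl3, Osbpl5, Osbpl6, Osbpl8, Osbpl9, Osbpl10 or Osbpl11. It found 10 genes with 1 probe each, of 16446 gene symbols and 23473 probes in all. Wild-type cells were hybridised to 3 single-colour arrays and cells of mice labelled SEPT4-KO, which lack the septin gene Sept4, to another 3. The animals of all 6 arrays had received CCl4, so no array shows an uninjured liver. The labels used here do not give the design of the knockout allele, the strain, the age or the duration of treatment, and do not say outright whether an array holds 1 animal or a pool. The family was chosen from results of this same contrast, in which the difference of Osbpl5 was already known. The differences between genotypes in these 10 genes are therefore given as a description, with standard errors and intervals and without p-values.

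Oxysterol-binding proteins carry lipids across the narrow gaps where the endoplasmic reticulum touches other membranes. A shared lipid-binding domain takes up a sterol or phosphatidylserine on one side and, in many members, returns phosphatidylinositol 4-phosphate (PI4P) on the other, where the phosphatase Sacm1l breaks it down. Most members reach the endoplasmic reticulum by binding VAP proteins, whereas the proteins of Osbpl5 and Osbpl8 are held there by a membrane anchor of their own. In stellate cells, lipid handling is of interest because quiescent cells store retinyl esters in lipid droplets and lose them as they become myofibroblasts.

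The values are normalised log2 signals, so a difference of 1 is a 2-fold difference. The upper quartile was 7.70 to 7.73 on wild-type and 7.82 to 7.84 on knockout arrays, so the deposited distributions are not identical. On each array 940 to 1255 probes shared the minimum value. None of the 10 genes lay at that minimum on any array. Across all probes the median difference, knockout minus wild type, was 0.12. A further quantile normalisation brought this to 0.02, and cyclic loess to 0.01, and differences of that order depend on the scaling. Some genes shifted by more, such as Osbpl9, from -0.27 to -0.44 after quantile normalisation. In limma 10025 probes (42.7%) were called at an adjusted p under 0.05. Of the calls 62.6% were higher in the knockout, against 52.5% after quantile normalisation. Each probe is compared only with itself across arrays, since the brightness of different probes does not order the levels of their genes. The labelling protocol speaks of RNA from each mouse but of tumour samples, and nothing else says that the arrays hold separate animals, so errors and p-values measure the spread between these arrays, which may be technical.

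The labelled cell type was checked against marker genes. All 10 stellate cell markers were measured, among them Lrat, Des and Cygb. Of these 10 genes 6 were called higher in the knockout, Lrat and Cygb among them, and 1, Des, was called lower. The summed linear signal of the 10 was 2997 to 3116 on wild-type and 4826 to 5103 on knockout arrays. For 6 myofibroblast markers, 1 called higher (Col1a1) and 5 lower, the sums were 50435 to 56542 and 31403 to 33709. Of 11 Kupffer cell and macrophage markers 8 were measured, 2 called higher and 2 lower, with sums of 4253 to 4525 in wild-type and 5026 to 5268 in knockout cells. Of these, Clec4f and the bright Cd5l were higher, whereas Emr1 was 2.42-fold and Cd14 2.02-fold lower, and such sums weigh bright probes most. The 7 measured of 9 hepatocyte markers (1 called lower) summed to 1215 to 1251 and 1146 to 1213, the 6 of 8 endothelial markers (1 called higher) to 162 to 184 and 186 to 215, and the 6 of 7 leukocyte markers (0 called in limma, 1 at an unadjusted p under 0.05) to 176 to 186 and 187 to 209. The 5 measured of 7 cholangiocyte markers (2 called lower) summed to 1247 to 1340 in wild-type and 590 to 622 in knockout cells, and the lower calls were Spp1 and Cldn4, of which Spp1 is also made by activated stellate cells. Among all these markers, the leukocyte genes Cd3e and Nkg7 lay at the lowest value of at least 1 array. In such bulk samples fewer cells of a type and less RNA per cell cannot be told apart, and the part of cell composition in the differences below was not tested.

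Of the 10 genes 4 were called by the fit across all probes, beside 42.7% of all probes. Osbpl5 alone was called higher, where 26.7% of all probes were, and Osbp, Osbpl8 and Osbpl9 were called lower, where 16.0% of all probes were. At least a 2-fold difference was seen in 2 of the called genes, Osbpl5 and Osbpl8, against 7.02% of all probes. The median difference of the 10 genes was 0.02. The genotypes did not overlap in 6 of the 10 genes, 3 with higher and 3 with lower knockout arrays, and in 56.2% of all probes. Nothing is read from these counts, because the contrast was known when the family was chosen.

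**Figure D1:**
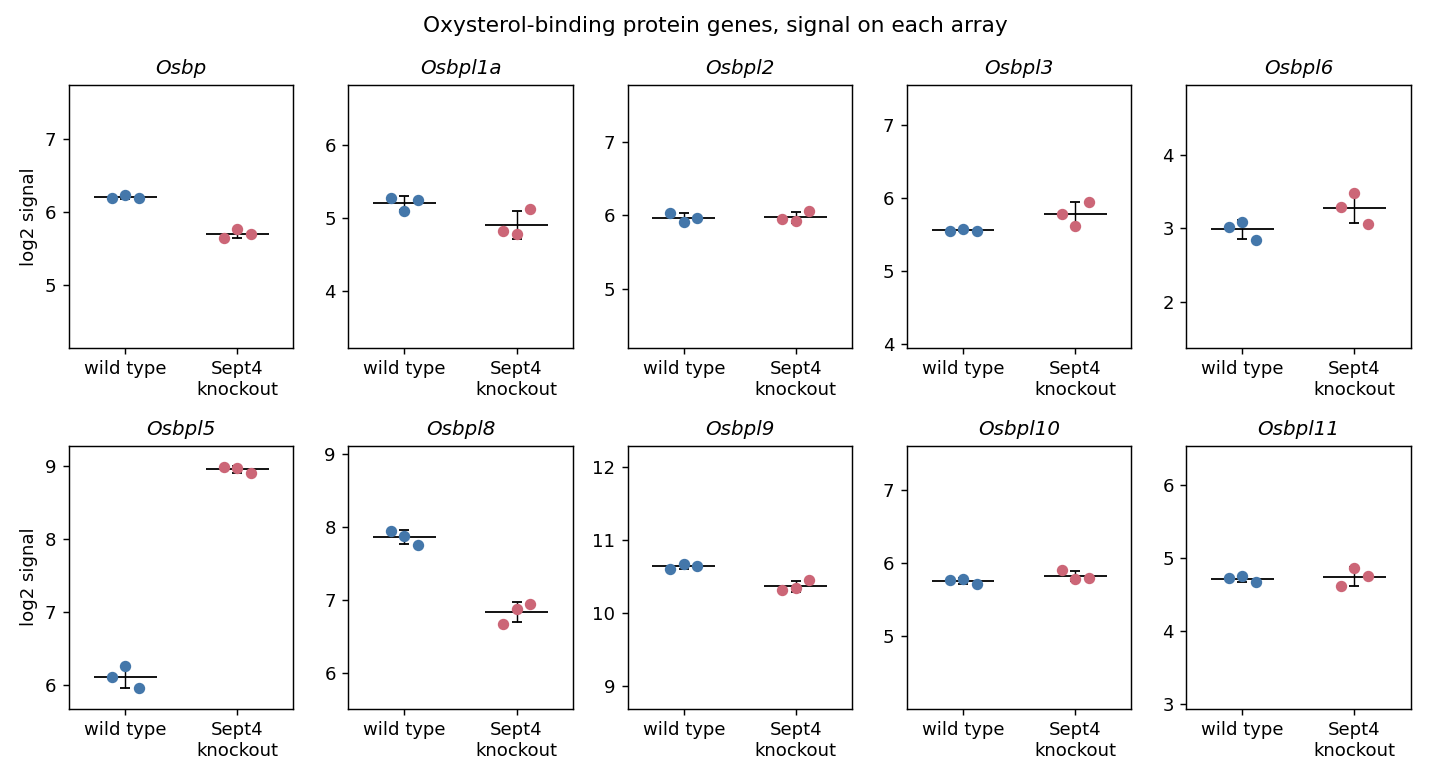
Log2 signal of each of the 10 genes on the 3 wild-type (blue) and 3 Sept4 knockout (red) arrays; points are arrays, horizontal lines the group means and error bars the SD, and every panel spans the same number of log2 units around its own centre. The knockout arrays of Osbpl5 sit between 8.90 and 8.99 and its wild-type arrays between 5.96 and 6.26, whereas those of Osbpl2, Osbpl10 and Osbpl11 are nearly level.

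Osbpl5 and Osbpl8 form the branch of the family that is anchored in the endoplasmic reticulum membrane, where both proteins trade phosphatidylserine for PI4P at contacts with the plasma membrane. These nearest relatives differed between the genotypes in opposite directions and by the largest amounts of the 10 genes. The promoter windows of this pair are shown because of that contrast. They are RefSeq sequences on GRCm38.p6 that run from 250 bases before to 50 bases after a gene's start. Capitals mark the E-box CACGTG and the GC box GGGCGG on either strand. The Osbpl5 window lies at chr7:143756959-143757258 on the minus strand and is the farthest upstream of 3 listed starts. The Osbpl8 window lies at chr10:111164552-111164851 on the plus strand.
Osbpl5: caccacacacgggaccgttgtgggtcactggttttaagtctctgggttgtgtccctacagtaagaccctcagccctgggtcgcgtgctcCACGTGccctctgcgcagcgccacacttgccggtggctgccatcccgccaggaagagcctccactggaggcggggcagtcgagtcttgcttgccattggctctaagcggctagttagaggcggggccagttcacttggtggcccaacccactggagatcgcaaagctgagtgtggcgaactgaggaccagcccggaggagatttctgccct
Osbpl8: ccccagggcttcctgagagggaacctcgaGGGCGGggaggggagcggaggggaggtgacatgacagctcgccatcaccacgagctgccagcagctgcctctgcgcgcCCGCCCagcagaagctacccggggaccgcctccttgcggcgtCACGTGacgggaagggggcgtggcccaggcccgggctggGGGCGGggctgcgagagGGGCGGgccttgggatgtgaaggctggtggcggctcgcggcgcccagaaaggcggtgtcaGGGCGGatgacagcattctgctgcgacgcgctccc

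Both windows hold 1 CACGTG, which occurs in 7.15% of the 32851 promoter windows of the same length in the table. The other 2 listed Osbpl5 starts hold 0 copies of it. The Osbpl8 window also holds 5 copies of GGGCGG, whereas the Osbpl5 window shown holds none and another listed Osbpl5 start holds 3. Osbpl1a, on chromosome 18, was left out of this search by choice, although windows of that chromosome stayed in the background shares. Osbpl10 had no match in the promoter table. The other 8 of the 10 genes had 12 starts between them. Of these starts 9 hold GGGCGG, against 35.7% of all windows, and 8 hold CCAAT, against 37.4%. The CpG content of the 12 starts ran from percentile 5.43 to 94.4 of all windows. The motif shares were not matched for CpG content, so they do not show enrichment. AGGTCA, a half-site of nuclear receptors, is in 1 of the 12, the start of Osbpl2, and in 16.3% of all windows. The letters TCACNCCAC, a sterol response element, are in 0 of the 12 and in 1.24% of all windows, and TATAAA in 0 of the 12 and 13.6%. The TCF/LEF letters ATCAAAG are in 1 of the 12, the start of Osbpl11, and in 3.73% of all windows. All were searched on both strands, and these are matches of letters, not mapped sites. The files do not say which transcript a probe reads, so no start can be assigned to the Osbpl5 signal.

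Osbpl5 read 6.11, 6.26 and 5.96 on the wild-type arrays and 8.99, 8.97 and 8.90 on the knockout arrays. The knockout arrays lay close together and far above every wild-type array. The group means were 6.11 ± 0.15 and 8.95 ± 0.05 (SD, n = 3), a log2 difference of 2.84 ± 0.09 (SE) with a 95% confidence interval of 2.61 to 3.07, or 7.15-fold higher. By size of rise it ranked 19 of 23473 probes. Over 16 other settings its difference stayed between 2.74 (cyclic loess) and 2.91 (without wild type replicate 2).

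Osbpl8 read 7.95, 7.88 and 7.76 on the wild-type arrays and 6.68, 6.88 and 6.95 on the knockout arrays. All knockout arrays lay well below all wild-type arrays. The means were 7.86 ± 0.10 and 6.84 ± 0.14 (SD, n = 3), a difference of -1.02 ± 0.10 (SE) with an interval of -1.27 to -0.78, or 2.03-fold lower. The difference of Osbpl5 exceeded that of Osbpl8 by 3.86 on the log2 scale, with an interval of 3.51 to 4.21, and this contrast is free of any shift that an array gives to both probes alike.

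Osbp, the founding member, exchanges cholesterol for PI4P between the endoplasmic reticulum and the trans-Golgi and binds oxysterols. It read 6.19, 6.24 and 6.19 in wild-type and 5.64, 5.77 and 5.69 in knockout cells. The groups did not overlap. The difference was -0.50 ± 0.05 (SE), with an interval of -0.64 to -0.36, or 1.42-fold lower. Over the other settings it ran from -0.54 to -0.47. The platform also names a probe Osbp2, outside the rule, for the closest relative of Osbp. It read 3.18, 0.80 and 0.22 on the wild-type arrays and 2.34, 2.25 and 1.77 on the knockout arrays, with 1 wild-type array at its lowest value. The wild-type arrays spanned the knockout arrays, and the difference of 0.72 had an interval of -1.37 to 2.81. Without wild type replicate 1, the highest of them, it was 1.61 and was called. In the gene table Osbp2 is also an older name of Osbpl5, so the identity of that probe is less certain.

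Osbpl9, whose protein carries phosphatidylserine and sterols between the endoplasmic reticulum and the Golgi, read 10.61, 10.68 and 10.65 in wild-type cells. In knockout cells it read 10.32, 10.34 and 10.46. The groups lay apart, but by less than the distances seen for Osbp and Osbpl8. The difference was -0.27 ± 0.06 (SE), with an interval of -0.42 to -0.12, or 1.21-fold lower. It was larger after scaling, -0.45 with cyclic loess. The call ended without wild type replicate 2 (-0.26), wild type replicate 3 (-0.27) or Sept4 knockout replicate 2 (-0.26).

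Osbpl10 and Osbpl11 encode partners that pair with the Osbpl9 protein or act beside it, and neither was called. Osbpl10 read 5.77, 5.78 and 5.70 in wild-type and 5.90, 5.78 and 5.78 in knockout cells. The groups touched without overlapping, and the difference of 0.07 had an interval of -0.07 to 0.22. Osbpl11 read 4.72, 4.74 and 4.67 in wild-type and 4.61, 4.86 and 4.76 in knockout cells. The knockout arrays spanned the wild-type arrays, and the difference of 0.03 had an interval of -0.17 to 0.23. The gap between these differences was 0.04, with an interval of -0.27 to 0.35.

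Osbpl1a and Osbpl2 encode the branch that handles cholesterol at late endosomes and at the plasma membrane and lipid droplets. Osbpl1a read 5.26, 5.09 and 5.24 in wild-type and 4.81, 4.77 and 5.12 in knockout cells. Knockout replicate 3 lay among the wild-type arrays and the other two lay below them. The difference of -0.30 ± 0.12 (SE) had an interval of -0.59 to 0.0033 and was not called; without Sept4 knockout replicate 3 it was -0.41 and was called. Osbpl2 read 6.03, 5.91 and 5.97 in wild-type and 5.95, 5.92 and 6.06 in knockout cells. The groups overlapped fully. The difference of 0.0060 had an interval of -0.15 to 0.17, and it turned to -0.040 after quantile normalisation and -0.028 after cyclic loess. Set against each other, the difference of Osbpl1a minus that of Osbpl2 was -0.30, with an interval of -0.51 to -0.10. This interval uses an ordinary pooled error, not that of limma, and was not adjusted for the number of pairs compared. As Osbpl2 differed by only 0.0060, the gap largely restates the difference of Osbpl1a, which was not called.

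Osbpl3 and Osbpl6 belong to the branch linked to cell adhesion and to contacts with the plasma membrane. Osbpl3 read 5.55, 5.57 and 5.55 in wild-type and 5.78, 5.62 and 5.94 in knockout cells. The wild-type arrays were nearly identical (SD 0.01, n = 3), and the knockout arrays, all above them, varied more (SD 0.16, n = 3). The difference of 0.23 ± 0.09 (SE) had an interval of -0.01 to 0.46 and was not called; without Sept4 knockout replicate 2 it was 0.31 and was called. Osbpl6 read 3.02, 3.09 and 2.85 in wild-type and 3.29, 3.49 and 3.06 in knockout cells. The groups overlapped, and the difference of 0.29 had an interval of -0.05 to 0.63. The differences of Osbpl3 and Osbpl6 were not distinguishable, at -0.07 between them with an interval of -0.70 to 0.56. The Osbpl6 probe is dim, and among the 5002 probes with a mean signal from 2 to 4 only 19.1% were called, against 64.4% from 6 to 8. Osbpl7, a relative of the same branch that the rule leaves out, read 2.45, 3.03 and 2.11 in wild-type and 2.54, 3.12 and 3.41 in knockout cells. The groups overlapped, and its difference of 0.49 had an interval of -0.35 to 1.34.

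**Figure D2:**
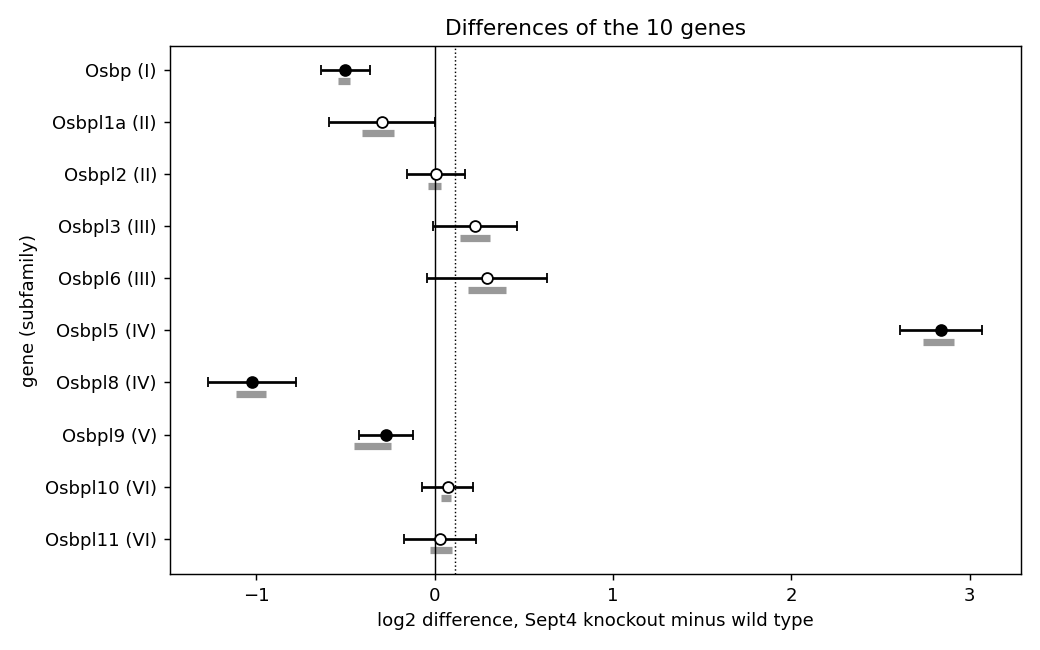
Log2 difference of each of the 10 genes, Sept4 knockout minus wild type, with 95% confidence intervals (3 arrays a group); filled points were called by the fit across all probes, grey bars give the range over the reported and 16 other settings, and the dotted line is the median of all probes, 0.12. Osbpl5 lies at 2.84 and Osbpl8 at -1.02, and the other 8 genes lie between -0.50 and 0.29.

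The probes with the centred profile most like that of Osbpl5 over the 6 arrays were sought among 14632 probes with 1 symbol that never reached an array's lowest value. The nearest was Cidea, a lipid droplet protein gene, at a Euclidean distance of 0.30 log2 units. Akp2, the tissue-nonspecific alkaline phosphatase, followed at 0.42 and Tubd1, delta-tubulin, at 0.45. Cidea rose by 2.96, Akp2 by 3.13 and Tubd1 by 2.52. With 2 groups, likeness over 6 arrays is mostly likeness in the size of the genotype difference.

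Oxysterols, the ligands that named the family, are made by sterol hydroxylases and sensed by the liver X receptors (LXR) and the Insig proteins. Of 20 measured genes of oxysterol synthesis and response, 6 were called higher and 6 lower, or 60% beside 42.7% of all probes, and their median difference was 0.13 beside 0.12. The share called depends on signal. Over all probes it was 12.7% at a mean signal under 2, 44.2% from 4 to 6 and 64.4% from 6 to 8. The shares of this and the following lists were not matched for signal, so they do not show enrichment. Ch25h, the hydroxylase that makes the oxysterol by which Osbp protein was first recognised, had the largest difference of the list. It read 7.61, 7.70 and 7.48 in wild-type and 5.16, 5.61 and 5.37 in knockout cells, with every knockout array far below. It fell by 2.22 ± 0.13 (SE) on the log2 scale, or 4.65-fold (limma, adjusted p 0.000574). After quantile normalisation it fell by 2.27.

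The other sterol hydroxylase genes that were called moved the opposite way to Ch25h. Cyp39a1, which acts on an oxysterol, rose by 0.82 (adjusted p 0.000791 in limma), Cyp46a1, the cholesterol hydroxylase best known from neurons, by 0.81 (adjusted p 0.000644) and the mitochondrial sterol hydroxylase gene Cyp27a1 by 0.71 (adjusted p 0.00169). Cyp7b1 differed by 0.11 and was not called. The genes that follow were picked after their values were seen. The LXR gene Nr1h2 fell by 0.69. Nr1h3, the other LXR gene, fell by 0.39, but its call ended with the ordinary per-probe test (adjusted p 0.068) and without any 1 of 5 arrays, with differences from -0.43 (without wild type replicate 1) to -0.29 (without Sept4 knockout replicate 2). The LXR target Abcg1, a sterol exporter, rose by 0.61, whereas Abca1, also a target, differed by 0.24 and was not called. Insig2, which holds the sterol sensor complex in the endoplasmic reticulum, fell by 0.53.

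Among 22 measured genes of other sterol and lipid carriers, 9 were called higher and 6 lower, 68.2% beside 42.7% of all probes, with a median difference of 0.15. The share called over all probes ran from 12.7% at a mean signal under 2 to 71.7% above 10. This list holds dim and bright genes, and its share was not matched for signal. Scarb2, a lysosomal membrane protein gene, rose by 1.51 ± 0.06 (SE), or 2.85-fold (limma, adjusted p 0.000325). The rise of Scarb2 was 1.26 after either quantile normalisation or cyclic loess. Cav1, the cholesterol-binding coat protein of caveolae, fell by 0.88 (adjusted p 0.000469 in limma). Stard8, whose product has a lipid-binding domain, rose by 0.79 (adjusted p 0.00131 in limma). The phospholipid carrier gene Stard10 was dim and rose by 1.29 (adjusted p 0.0178 in limma), but its call ended without Sept4 knockout replicate 1 (1.15). Also picked after their values were seen, the lysosomal cholesterol exporters Npc1 and Npc2 fell by 0.33 and 0.56, the cytosolic sterol carrier gene Stard4 rose by 0.76, and the ceramide carrier gene Col4a3bp, which works beside Osbp at the Golgi, fell by 0.62. The fall of Npc1 was 0.52 after either quantile normalisation or cyclic loess. The call of Col4a3bp ended without wild type replicate 2 (-0.56).

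Among 24 measured genes of membrane contact sites and the lipids exchanged there, 7 were called higher and 6 lower, 54.2% beside 42.7% of all probes, and none of the calls reached 2-fold. The median of this list was 0.07 and turned to -0.06 after quantile normalisation and after cyclic loess, and the calls became 4 higher and 7 lower after quantile normalisation. Of 3 kinase genes whose products make phosphatidylinositol bisphosphate from PI4P, 2 fell, Pip5k1a by 0.62 (adjusted p 0.00307 in limma) and Pip5k1c by 0.73 (adjusted p 0.0256 in limma). The other, Pip5k1b, differed by 0.15 and was not called. The call of Pip5k1c ended without wild type replicate 1, 2 or 3 (-0.76, -0.73 and -0.70) or Sept4 knockout replicate 3 (-0.78), and also, at the same difference, with the ordinary per-probe test (adjusted p 0.052) and with the trended and robust prior of limma (adjusted p 0.052). Serinc5, of the serine incorporator family, fell by 0.62 (adjusted p 0.00204), and Mospd2, a tether that binds the same motif as VAP proteins, by 0.58 (adjusted p 0.00198), both in limma. The genes that follow were again picked after their values were seen. Ptdss2, an enzyme that makes the phosphatidylserine carried by the Osbpl5 and Osbpl8 proteins, rose by 0.53 and Pi4k2b, which makes PI4P, by 0.51. Pi4k2a differed by -0.19 and was not called. Serinc3 and Mospd3 moved opposite to Serinc5 and Mospd2, rising by 0.37 and 0.31. After cyclic loess these rises were 0.12 and 0.14 and no longer called. Ptdss1 rose by 0.26 and the VAP gene Vapa by 0.27, but after quantile normalisation these were 0.11 each and no longer called. The PI4P phosphatase gene Sacm1l differed by 0.07 and was not called.

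**Figure D3:**
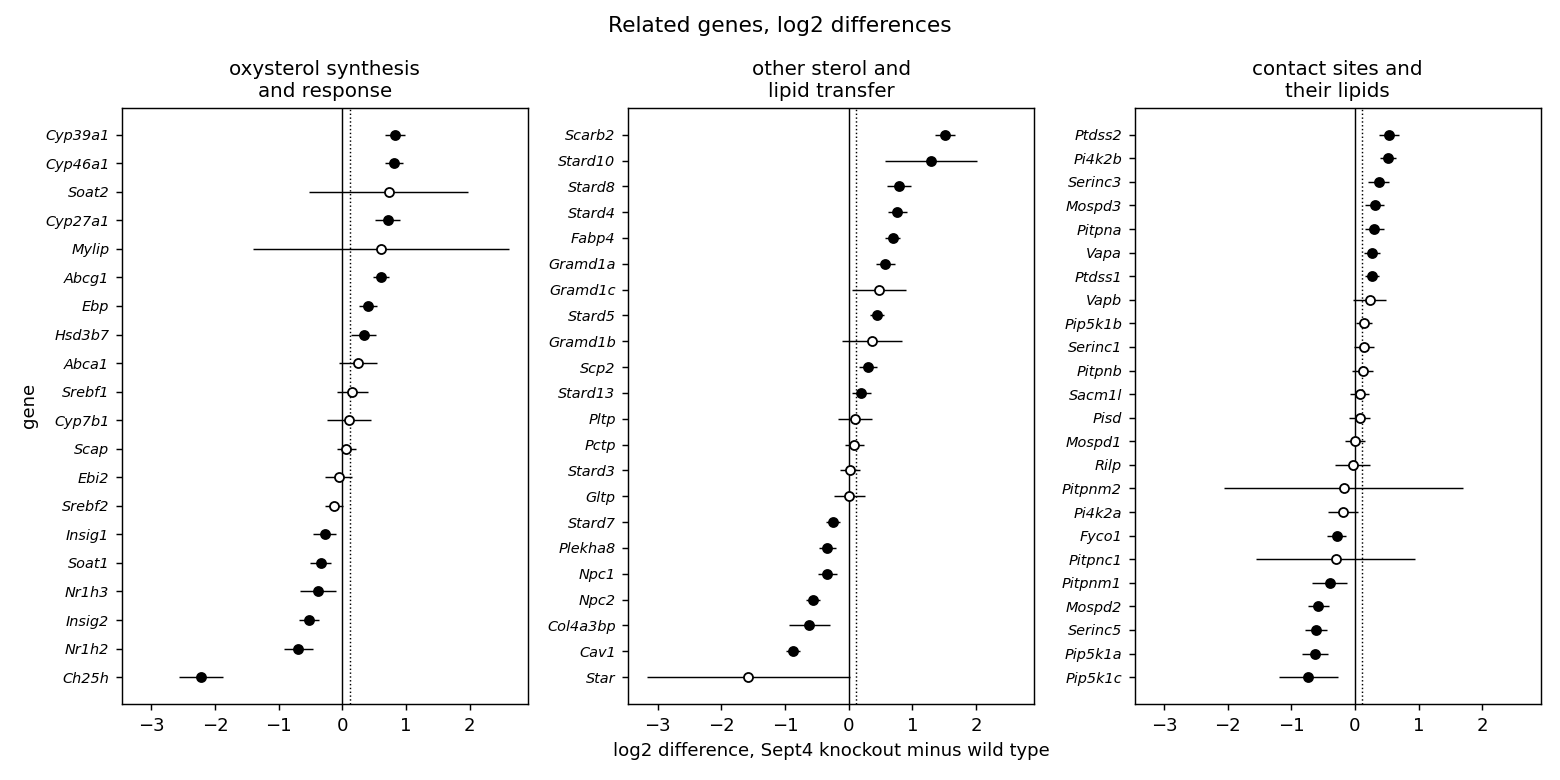
Log2 differences, Sept4 knockout minus wild type, with 95% confidence intervals (3 arrays a group), of the measured genes of the 3 related lists, sorted by size; filled points were called by limma across all probes and the dotted line is the median of all probes. Ch25h lies farthest below 0 among the called genes, at -2.22, and Scarb2 farthest above, at 1.51.

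Osbpl5 lies at the edge of the imprinted cluster of distal chromosome 7, whose genes are expressed from 1 parental copy in some tissues, and Osbpl5 itself is imprinted in placenta. The genes beside it were not called. On its near sides Tnfrsf23 differed by 0.06 (interval -0.11 to 0.23) and Mrgprg by 1.10 (interval -0.64 to 2.84, a dim probe), and 0 of the 6 nearest measured genes were called in limma, with 0 of them at an unadjusted p under 0.05. Mrgprg, Mrgpre and Tnfrsf22 had mean signals under 4. Of all probes only 12.7% were called under 2 and 19.1% from 2 to 4, so the lack of calls says little about these genes. Of 20 other measured genes of the cluster and its flanks, 4 were called higher and 2 lower, or 30%, beside 42.7% of all probes. Dim probes, such as those of Th and Dhcr7, are also among these 20, and the share was not matched for signal. H19, a noncoding RNA of the cluster, read 7.54, 7.61 and 7.64 in wild-type and 5.99, 6.12 and 6.03 in knockout cells. The groups lay far apart. H19 fell by 1.55 ± 0.06 (SE), or 2.93-fold (adjusted p 0.000293 in limma), and the growth factor gene Igf2 next to it by 0.81 (adjusted p 0.0125 in limma). Tssc4 rose by 0.89 (adjusted p 0.000469 in limma) and the tetraspanin gene Cd81 by 0.63 (adjusted p 0.00169 in limma). The rise of Cd81 was 0.38 after cyclic loess, where it was still called.

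Around all 10 genes together, 27 of 60 nearest measured neighbours (3 on each side) were called, 17 higher and 10 lower, and 3 of the 60 were called and differed at least 2-fold. The shares over all probes were 42.7% called, 26.7% higher, 16.0% lower and 7.02% at least 2-fold, so the neighbours lay near the background. The olfactory receptor genes Olfr1418 and Olfr1426 beside Osbp were lower in the knockout, Olfr1418 by a log2 difference of -1.15, and Calr4 beside Osbpl9 rose by 1.07. Wild-type and knockout means were 3.88 and 2.73 for Olfr1418, 5.21 and 4.21 for Olfr1426, and 2.73 and 3.80 for Calr4. The probes of Olfr1418 and Calr4 are thus dim.

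**Figure D4:**
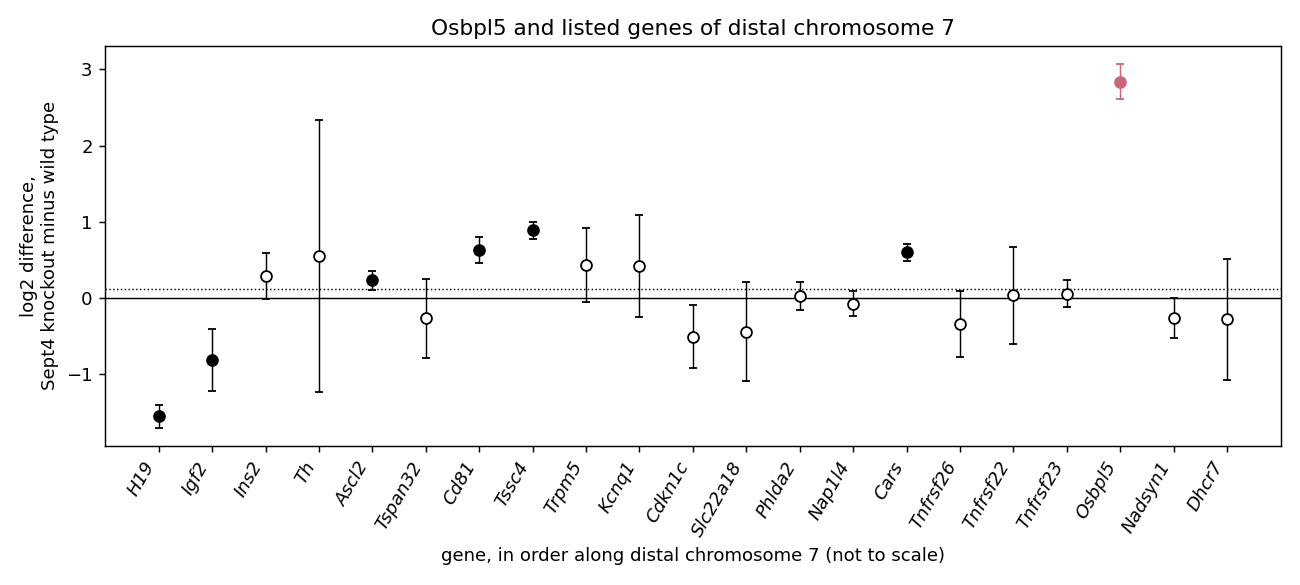
Log2 differences, Sept4 knockout minus wild type, with 95% confidence intervals (3 arrays a group), of Osbpl5 (red) and 20 other measured genes of distal chromosome 7 in gene order, not to scale; filled points were called by limma across all probes, and the dotted line is the median of all probes. Osbpl5 at 2.84 stands above the other genes, of which Tssc4 is the highest call at 0.89 and H19 the lowest at -1.55.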

How the data were processed

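Total RNA of hepatic stellate cells was hybridised to single-colour Cy5 arrays, 3 for each genotype. The deposited values are log2 signals, quantile normalised by the authors per the labels, although their distributions differ between arrays. The log base was inferred from their range. How background was corrected is not given in the sources used here. The labelling protocol names a microRNA kit. Probes were named from the platform annotation. Of 16446 symbols, 16384 matched the gene table (GRCm38.p6), used for names and gene order. The members and lists were chosen with earlier results of these data known.

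Knockout was compared with wild type with lmFit and eBayes in limma 3.58.1 (R 4.3.3) on all 23473 probes, two-sided, with Benjamini-Hochberg adjustment over all probes, on the values as deposited. The prior added 1.11 degrees of freedom to 4. Intervals for the gap between the differences of 2 genes used an ordinary pooled error with 4 degrees of freedom, unadjusted for the number of pairs. A gene with several probes was counted by its brightest. Named by rule were all members, up to 4 called genes per list by size, the neighbours nearest to Osbpl5 or at least 2-fold, and the 3 profiles nearest to Osbpl5. Further genes of the lists were picked outside this rule, after their values were seen. The planned protein comparison was not run. Sept4 is not named among the probes used, so the knockout labels were not checked by it. The number of arrays limits precision. The fit was also run on simulated data in which far fewer probes differed than were called here. That run therefore does not measure the error rate of the fit in these data. The closing section gives the alternatives and their effect. Figures were drawn with matplotlib 3.10.9.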

Additional observations from a re-analysis of the deposited data

How the results depend on the processing

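The other settings were quantile normalisation, cyclic loess, median centring, leaving out the dimmest 25% of probes or those at an array's lowest value, an offset added to the linear values, an ordinary per-probe test, a prior made robust and trended, the replicate block, the mean of a gene's probes, and leaving out each array. Over these 16 settings, 127 of 128 counts of called probes, members or list genes stayed within 1.5 times the reported count. The exception was the number of members called higher, which was 2 without Sept4 knockout replicate 2; leaving out each array gave 1 to 2. Leaving out an array gave 3 to 5 called members and 7954 to 9082 called probes.

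The sign turned for Osbpl2 after quantile normalisation (-0.040) and cyclic loess (-0.028), and leaving out each array moved it from -0.037 to 0.035, below 0 without wild type replicate 2 (-0.022) and without Sept4 knockout replicate 3. Leaving out each array moved Osbpl11 from -0.029 (without Sept4 knockout replicate 2) to 0.098, and Sacm1l turned after quantile normalisation (-0.089) and cyclic loess (-0.13); none of these was called, and the cause was not tested. Osbp, Osbpl5 and Osbpl8 kept their direction and call under all 16 settings. These settings reuse the same 6 arrays from which the family was chosen, so this is no separate support for the differences. The replicate numbers are shared across genotypes, and deviations of same-numbered arrays correlated at 0.0077, -0.0013 and -0.0020. These values show no large effect common to same-numbered arrays. They cannot exclude a smaller one, because many dim, noisy probes enter them, so whether the numbers pair the arrays stays unknown. With the replicate block 7724 probes were called, the call of Osbpl9 ended (difference -0.27), and 3 members were called. The calls of Igf2 (limma, adjusted p 0.055), Col4a3bp, Nr1h3, Pip5k1c and Olfr1426 also ended with the block. Probes with a mean signal under 4 had a median standard error of at least 0.31, against 0.07 from 6 to 8.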
